A study of Mus musculus with 12 samples.

Results

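The YAP and TEAD gene set followed here comprised 10 of the 53700 gene identifiers in the count table: the coactivator genes Yap1 and Wwtr1, the DNA-binding partner Tead1, the secreted or nuclear targets Ccn1, Ccn2 and Ankrd1, and the pathway regulators Amotl1, Amotl2, Ajuba and Lats2. They were taken by name, through the Ensembl identifier of each symbol, and every one of the 10 was found and was abundant enough to be tested. Ccn1 and Ccn2 are also known as Cyr61 and Ctgf.

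RNA was sequenced from 12 untreated cultures of mouse intrahepatic cholangiocyte organoids, which are hollow structures of bile duct epithelium grown in domes of Matrigel and harvested at passage 5. They came from 3 mice homozygous for the Ndr allele of Jag1 (Jag1 Ndr/Ndr, called Ndr; mice 1219, 1220 and 1224) and from 3 mice with wild-type Jag1 (called WT; mice 1221, 1223 and 1225), with 1 hilar and 1 peripheral culture from each liver. The 4 groups were therefore Ndr hilar, WT hilar, Ndr peripheral and WT peripheral organoids, with 3 cultures in each. Jag1 encodes a Notch ligand, its human counterpart is mutated in most patients with Alagille syndrome, and the Ndr allele is a missense change that leaves a transcript, so the level of Jag1 does not check the labels. Animal ages were not stated in the labels. All cells of a mouse carry the allele, each culture stands for 1 mouse, and epithelium grown in gel holds neither the duct wall nor the liver around it.

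In the Hippo pathway, the kinases STK3 and STK4 activate LATS1 and LATS2, which phosphorylate YAP and TAZ (the products of Yap1 and Wwtr1) and keep them out of the nucleus. Unphosphorylated YAP and TAZ bind TEAD proteins on DNA and switch on genes such as Ccn1, Ccn2 and Ankrd1, and also Amotl2, Ajuba and Lats2, whose products act back on the pathway. In the liver this pathway sets biliary cell fate and responds to injury and to stiffness of the surrounding matrix, and YAP activity is controlled largely by phosphorylation, which RNA counts do not show.

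Of the 10 genes, 8 had a promoter sequence in the RefSeq table of build GRCm38.p6, and Ccn2 and Tead1 had none. The 250 bases before the annotated start were searched on both strands for GGAATG, the core of the TEAD binding motif, whose reverse complement is CATTCC. It was present in 6 of the 8 genes (Yap1, Wwtr1, Ccn1, Ankrd1, Amotl2 and Ajuba) and in 12.6% of 32851 promoter windows of the same length. The units differ: a gene counted if any of its windows held the motif (Wwtr1 and Lats2 had 2 windows each), while the share is over single windows. Ankrd1 and Ajuba each held 2 copies, which 1.02% of windows did. No copy lay in the windows of Amotl1 and Lats2. The AP-1 motif TGANTCA, searched in the same windows, was in none of the 8 and in 6.75% of all windows. Within the 250 bases searched, the motif lay at -103 in Ccn1, at -210 and -123 in Ankrd1, at -65 in Amotl2 and at -186 and -164 in Ajuba. Positions are counted in bases from the first transcribed base to the first base of the motif. These 4 promoters are shown because they belong to the targets and feedback genes described below and carry the motif. Ccn1 (chr3:145649986-145650235, minus strand), Ankrd1 (chr19:36119845-36120094, minus strand), Amotl2 (chr9:102717554-102717803, plus strand) and Ajuba (chr14:54577662-54577911, minus strand) are written 5′ to 3′ up to the last base before the start, with the motif in capitals.
Ccn1: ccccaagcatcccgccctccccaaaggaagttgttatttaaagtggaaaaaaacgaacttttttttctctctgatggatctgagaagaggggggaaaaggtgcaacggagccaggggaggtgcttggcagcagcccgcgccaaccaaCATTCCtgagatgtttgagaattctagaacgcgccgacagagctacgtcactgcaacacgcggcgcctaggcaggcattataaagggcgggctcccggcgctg
Ankrd1: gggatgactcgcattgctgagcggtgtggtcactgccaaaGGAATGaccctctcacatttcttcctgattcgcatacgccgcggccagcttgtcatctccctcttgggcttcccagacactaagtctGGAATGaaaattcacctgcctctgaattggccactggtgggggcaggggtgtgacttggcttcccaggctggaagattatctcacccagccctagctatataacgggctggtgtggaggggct
Amotl2: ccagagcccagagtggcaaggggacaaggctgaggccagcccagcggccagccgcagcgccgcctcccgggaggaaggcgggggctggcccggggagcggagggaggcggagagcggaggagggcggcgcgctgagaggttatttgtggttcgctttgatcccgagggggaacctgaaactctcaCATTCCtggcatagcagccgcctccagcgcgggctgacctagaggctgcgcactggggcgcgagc
Ajuba: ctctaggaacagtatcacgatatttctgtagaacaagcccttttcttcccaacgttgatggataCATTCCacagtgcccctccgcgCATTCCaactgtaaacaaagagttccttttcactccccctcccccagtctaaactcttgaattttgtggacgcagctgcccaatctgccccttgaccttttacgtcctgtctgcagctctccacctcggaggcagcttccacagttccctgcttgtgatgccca

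Libraries held 6708822 to 16030880 counts. Cholangiocyte genes summed to 12250 to 22460 CPM (counts scaled to library size, with TMM factors) and none of the 12 listed was absent, with Epcam at 349 CPM or more in each library. Onecut1 of that list fell to 0.377 CPM in its lowest library. Markers of fibroblasts and stellate cells, which also make CCN proteins, were under 1 CPM in all 12 libraries for 10 of 12 genes, and Dcn, Lum and Thy1 had no count in any. The exceptions were Col1a1, which reached 1.79 CPM, and Postn, which reached 19.9 CPM. Of 9 endothelial genes, 8 were under 1 CPM in all libraries, among them Pecam1, Cdh5 and Kdr, while Egfl7 lay between 5.88 and 20.3 CPM. In RNA from whole cultures, fewer cells of a type and less RNA per cell cannot be told apart.

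Per kilobase of exon, the secreted targets had the highest means of the 10 genes. In CPM, Ankrd1 (mean 480 over 12 libraries) lay above Ccn1 (mean 411). Dividing each CPM by the length of the gene's exons, so that genes can be set against each other, gave 359 ± 157 CPM per kilobase for Ccn2, 204 ± 69.6 for Ccn1 and 166 ± 60.2 for Ankrd1 (SD, n = 12 libraries). Ajuba at 46.4, Amotl2 at 36.0, Wwtr1 at 30.7 and Yap1 at 18.9 CPM per kilobase formed the middle of the order, and Amotl1 at 12.2, Tead1 at 10.5 and Lats2 at 4.57 its lower end. Ccn2 exceeded Ccn1 in 12 of 12 libraries, Ankrd1 exceeded Ajuba in 12 and Wwtr1 exceeded Yap1 in 12. The other neighbours in this order changed places in at least 1 library: Ccn1 exceeded Ankrd1 in 9, Ajuba exceeded Amotl2 in 10, Amotl2 exceeded Wwtr1 in 9, Yap1 exceeded Amotl1 in 11, Amotl1 exceeded Tead1 in 8 and Tead1 exceeded Lats2 in 11. On the same scale the other TEAD genes were at 15.0 (Tead2), 6.75 (Tead4) and 3.97 (Tead3), Lats1 at 17.6 and Amot at 11.3 CPM per kilobase.

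The mRNAs of both coactivators varied less between cultures than those of the other 8 genes. Yap1 measured 152, 180 and 161 CPM in Ndr hilar and 203, 147 and 162 CPM in WT hilar organoids, and 190, 153 and 181 CPM in Ndr peripheral and 189, 191 and 185 CPM in WT peripheral organoids (mice in the order 1219, 1220 and 1224 for Ndr and 1221, 1223 and 1225 for WT, here and below). The groups overlapped, and the highest library was 1.39 times the lowest. Wwtr1, which encodes TAZ, measured 147, 144 and 124 CPM in Ndr hilar and 164, 152 and 113 CPM in WT hilar organoids, and 148, 121 and 173 CPM in Ndr peripheral and 144, 183 and 147 CPM in WT peripheral organoids. No group stood apart. Over the 12 libraries the SD of log2(CPM + 1) was 0.156 for Yap1, which 2.77% of the 15014 tested genes undercut, and 0.203 for Wwtr1, which 8.73% undercut, against a median of 0.388 over all tested genes.

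Each of the other 8 genes was more variable than the median gene. Tead1, the gene of the DNA-binding partner, measured 40.8, 250 and 135 CPM in Ndr hilar and 165, 92.7 and 129 CPM in WT hilar organoids, and 173, 64.9 and 150 CPM in Ndr peripheral and 164, 214 and 136 CPM in WT peripheral organoids. Its lowest and highest values, 6.13-fold apart, were both from Ndr hilar cultures. The SD of its log2(CPM + 1) was 0.724, larger than that of 86.4% of tested genes.

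Ccn1 and Ccn2, whose products bind integrins and matrix outside the cell, ran together from culture to culture, with no gap between groups. Ccn1 measured 467, 365 and 403 CPM in Ndr hilar and 487, 624 and 393 CPM in WT hilar organoids, and 560, 203 and 214 CPM in Ndr peripheral and 285, 335 and 597 CPM in WT peripheral organoids. Ccn2 measured 1419, 976 and 1282 CPM in Ndr hilar and 778, 1304 and 573 CPM in WT hilar organoids, and 1802, 520 and 651 CPM in Ndr peripheral and 498, 889 and 1624 CPM in WT peripheral organoids. For both genes the peripheral culture of 1 mouse in each genotype, Ndr 1219 and WT 1225, was far above the other 2 of its group.

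Ankrd1, an ankyrin repeat protein of the nucleus and of muscle sarcomeres, is a widely used readout of YAP activity and had another pattern. It measured 339, 240 and 338 CPM in Ndr hilar and 494, 743 and 550 CPM in WT hilar organoids, and 335, 390 and 571 CPM in Ndr peripheral and 478, 455 and 830 CPM in WT peripheral organoids. All Ndr hilar values lay below all WT hilar values, while in the periphery Ndr 1224 lay above 2 of the WT cultures.

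The angiomotin-like genes encode junction proteins that bind YAP and hold it outside the nucleus. Amotl1 measured 72.9, 197 and 135 CPM in Ndr hilar and 152, 99.9 and 94.6 CPM in WT hilar organoids, and 201, 31.0 and 64.2 CPM in Ndr peripheral and 104, 171 and 146 CPM in WT peripheral organoids. Amotl2 measured 157, 299 and 244 CPM in Ndr hilar and 389, 244 and 187 CPM in WT hilar organoids, and 202, 97.4 and 144 CPM in Ndr peripheral and 216, 327 and 210 CPM in WT peripheral organoids. The 3 Ndr peripheral values of Amotl2 were below the 3 WT peripheral ones, whereas its hilar values and all values of Amotl1 overlapped between genotypes. The SD of log2(CPM + 1) of Amotl1 was 0.770, the largest among the 10 genes, with 88.3% of tested genes below it.

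Ajuba, a LIM-domain scaffold that binds LATS kinases and restrains them, and Lats2, a gene of those kinases, overlapped between genotypes in both regions. Ajuba measured 142, 245 and 179 CPM in Ndr hilar and 238, 82.2 and 166 CPM in WT hilar organoids, and 249, 147 and 132 CPM in Ndr peripheral and 150, 142 and 156 CPM in WT peripheral organoids. Lats2 measured 26.4, 62.3 and 37.4 CPM in Ndr hilar and 50.7, 20.4 and 18.1 CPM in WT hilar organoids, and 35.3, 17.1 and 20.2 CPM in Ndr peripheral and 25.5, 40.1 and 28.8 CPM in WT peripheral organoids. For both genes the highest and the lowest hilar values came from different genotypes. In the GENCODE M21 annotation Lats2 shares 2955 exon bases with a gene model on the same strand, Gm49361, which had no count here, and Ccn2 and Yap1 overlap the opposite-strand models Gm15270 and Gm20416, which had at most 4 counts and 1 count in a library. How reads in shared bases were assigned is not given in the sources used here.

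**Figure D1:**
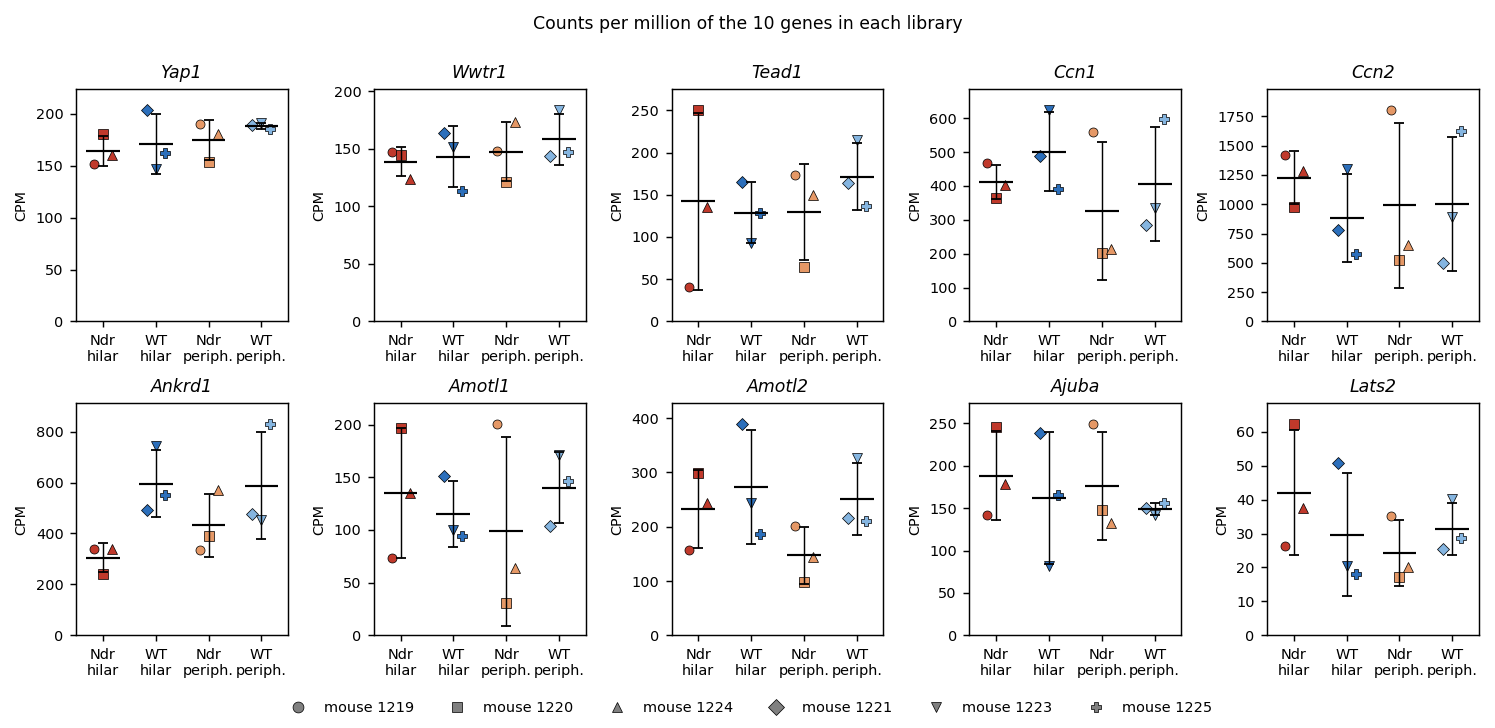
CPM (vertical axes, from 0) of the 10 genes in each of the 12 libraries, by group of genotype and region. Symbols mark the mouse, horizontal lines the mean and bars the SD of 3 cultures; Yap1 and Wwtr1 vary little, Ankrd1 is lower in all Ndr hilar than in all WT hilar cultures, and Tead1, Ccn2 and Amotl1 range widely within groups.

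Between Ndr and WT hilar organoids, Ankrd1 was the gene of the set with the largest difference, and none of the 10 passed the test. Ankrd1 averaged 306 ± 56.8 CPM in Ndr hilar and 596 ± 131 CPM in WT hilar organoids (SD, n = 3 each). That is a log2 difference of -0.96 (SE 0.312, 95% interval -1.65 to -0.28), with an edgeR unadjusted p of 0.0102 and a Benjamini-Hochberg adjusted p of 0.750. The log2 differences of the other 9 ran between -0.28 (Ccn1) and 0.49 (Lats2), and with Ankrd1 5 of the 10 were negative, as were 50.5% of tested genes. The median of the 10 was 0.05, against 0.00 over all tested genes, and ranged from -0.14 to 0.22 with a library left out. Like every log2 difference under 1 in size printed here, these were chosen for print after their values were seen. edgeR called 0.0% of 15014 genes at an adjusted p under 0.05, while 6.54% had an unadjusted p under 0.05, as did 1 of the 10 genes. DESeq2 called 45 genes and none of the set. The values of both groups did not overlap for 8.75% of tested genes and for 1 of the 10.

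The hilar difference in Ankrd1 ran beside other measures of the cultures. A list of 18 actin and serum response factor genes, which includes Actb and Flna, summed to 5109 to 5371 CPM in Ndr hilar and 6278 to 9253 CPM in WT hilar organoids. Fibroblast and stellate markers summed to 4.60 to 20.6 CPM in Ndr hilar and 0.377 to 6.83 CPM in WT hilar organoids, with Postn averaging 13.1 ± 9.06 CPM in Ndr hilar and 1.94 ± 2.97 CPM in WT hilar organoids (SD, n = 3 each) and Dcn, Lum and Thy1 at 0 counts. Proliferation genes summed to 528 to 899 CPM in Ndr hilar organoids and to 569, 889 and 3311 CPM in WT hilar organoids, the last in mouse 1225. The part of these measures in the Ankrd1 difference was not tested. With each of the 12 libraries left out in turn, the log2 difference of Ankrd1 lay between -1.11 and -0.77.

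Between Ndr and WT peripheral organoids, 9 of the 10 genes had negative log2 differences, and none passed the test. Amotl2 averaged 148 ± 52.3 CPM in Ndr peripheral and 251 ± 66.1 CPM in WT peripheral organoids (log2 -0.77, SE 0.364, 95% interval -1.57 to 0.03, edgeR adjusted p = 1.0). Ankrd1 averaged 432 ± 123 CPM in Ndr peripheral and 588 ± 210 CPM in WT peripheral organoids (log2 -0.44, SE 0.310, edgeR adjusted p = 1.0). Without WT peripheral 1225, the culture with the highest Ankrd1, that log2 difference was -0.11. Ajuba was the exception, at 0.24. The median of the 10 was -0.35, against 0.03 over all tested genes, of which 45.5% had a negative difference. edgeR called 0.0% of genes at an adjusted p under 0.05, with 2.92% and none of the 10 at an unadjusted p under 0.05, and DESeq2 called 9 genes, none in the set. Values did not overlap for 9.02% of tested genes and for 1 of the 10, Amotl2. The median of the set rested on single cultures. It was -0.72 without Ndr peripheral 1219, the culture with the highest Ccn1, Ccn2 and Amotl1 of its group, but -0.10 without Ndr peripheral 1220, -0.14 without WT peripheral 1225 and -0.22 without WT peripheral 1223. It was -0.17 on the deposited normalized table and -0.096 with the transcript length measure described further on as a covariate, which was added after the data were seen.

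Summing the hilar and peripheral libraries of each mouse gave 3 Ndr and 3 WT mouse totals, the comparison in which the mouse is the replicate. Ankrd1 totals were 331, 319 and 476 CPM in Ndr mice and 493, 581 and 712 CPM in WT mice. Amotl2 totals were 175, 178 and 187 CPM in Ndr mice and 320, 291 and 202 CPM in WT mice. For both genes every Ndr mouse lay below every WT mouse, which held for 2 of the 10 genes and, in either direction, for 11.3% of the 15401 tested genes. The log2 difference was -0.66 for Ankrd1 (SE 0.224, 95% interval -1.19 to -0.14, unadjusted p = 0.0205) and -0.59 for Amotl2 (SE 0.188, 95% interval -1.03 to -0.15, unadjusted p = 0.0158), and both had an edgeR adjusted p of 0.869. With 3 mice a side, the smallest two-sided p of an exact permutation test is 0.1.

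The remaining genes of the set did not separate the mouse totals. Yap1 totals were 167, 161 and 173 CPM in Ndr mice and 200, 172 and 177 CPM in WT mice, a log2 difference of -0.13 with a 95% interval of -0.42 to 0.16. Wwtr1 totals were 145, 128 and 153 CPM in Ndr mice and 157, 170 and 133 CPM in WT mice, a log2 difference of -0.11 with an interval of -0.45 to 0.23. The intervals of these 2 coactivator genes cover both directions and do not reach a change of 1 on the log2 scale. The same holds for the other remaining genes, with the widest intervals for Ccn2 and for Ccn1 (-0.996 to 0.242). Ccn2 totals were 1575, 696 and 920 CPM in Ndr mice and 668, 1071 and 1159 CPM in WT mice, with an interval of -0.70 to 0.97 around a log2 difference of 0.14. Ccn1 totals were 502, 265 and 294 CPM in Ndr mice and 407, 461 and 510 CPM in WT mice (log2 -0.38, SE 0.262).

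Over the mouse totals 8 of the 10 differences were negative, as were 50.7% of all tested genes, and the set's median was -0.19 against 0.00. edgeR called 0.0% of genes at an adjusted p under 0.05, with 5.42% of genes and 2 of the 10 at an unadjusted p under 0.05, and DESeq2 called 126 genes, none of the set. On the deposited normalized table, limma-trend called 4 of the 10, Ccn1, Ankrd1 and Amotl1 lower and Wwtr1 higher in Ndr mice, where it called 47.7% of 15923 genes. The cultures were derived on different dates, and Ndr 1224 and WT 1225 were the only mice of different genotype with the same date. Between these 2 mice the log2 difference of Ankrd1 was -0.70 in hilar, -0.54 in peripheral and -0.58 in summed libraries, while that of Amotl2 was 0.39 in hilar, -0.55 in peripheral and -0.11 in summed libraries. For the other mice, date and genotype cannot be told apart.

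**Figure D2:**
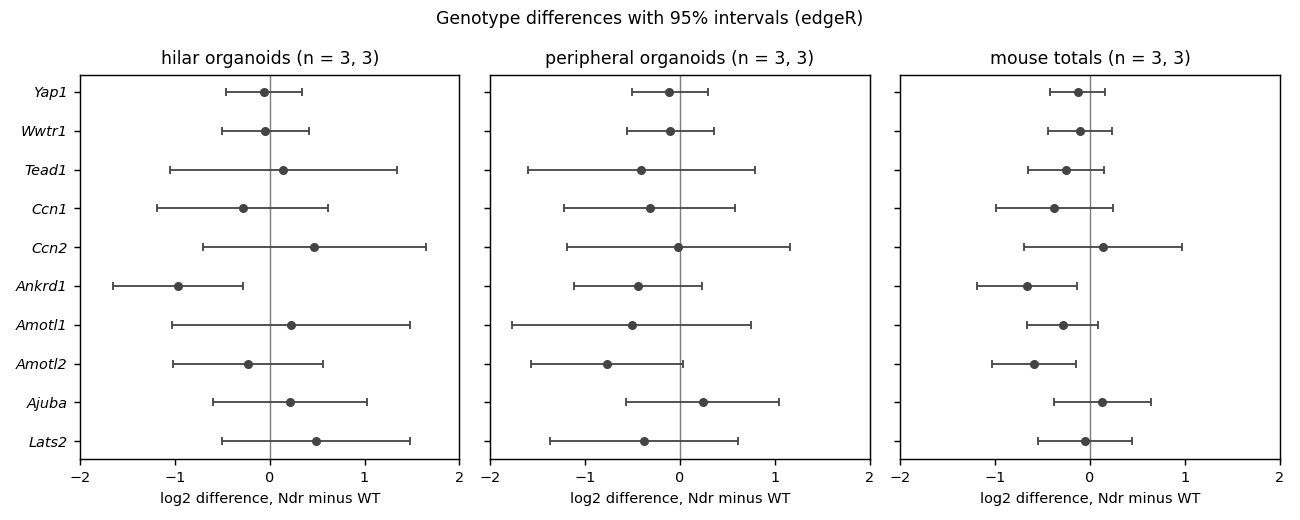
Log2 differences between Ndr and WT organoids (horizontal axes) for the 10 genes in hilar organoids, peripheral organoids and mouse totals, as edgeR estimates with 95% intervals. Only the intervals of Ankrd1 in hilar organoids and of Ankrd1 and Amotl2 in mouse totals lie wholly below 0, and no adjusted p was under 0.05.

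Between hilar and peripheral organoids, none of the 10 genes passed the test in either genotype, and direction differed by mouse. In Ndr organoids, Lats2 averaged 42.0 ± 18.4 CPM in hilar and 24.2 ± 9.76 CPM in peripheral cultures (log2 0.80, SE 0.454, edgeR adjusted p = 0.585), and Amotl2 233 ± 71.6 and 148 ± 52.3 CPM (log2 0.66, SE 0.364, adjusted p = 0.573). Of the 10 genes, 7 had positive log2 differences in Ndr organoids (median 0.22, all genes -0.01) and 4 in WT organoids (median -0.11, all genes 0.03). Of all tested genes 51.3% were negative in Ndr and 46.1% in WT organoids. In Ndr organoids 10.3% of tested genes and in WT organoids 0.506% had an unadjusted p under 0.05, none of them in the set. Groups did not overlap for 15.4% of genes in Ndr and 5.54% in WT organoids, and for 0 of the 10 in both. edgeR called 0.0% of genes at an adjusted p under 0.05 in either genotype, and DESeq2 called 79 in Ndr and 0 in WT organoids.

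Taken mouse by mouse, the region difference of the set turned round. In Ndr mouse 1219, 1 of the 10 genes was higher in the hilar culture, and Tead1 was at 40.8 CPM in the hilar and 173 CPM in the peripheral culture. In Ndr mouse 1220, 9 of the 10 were higher in the hilar culture, with Tead1 at 250 CPM against 64.9 CPM and Amotl1 at 197 CPM against 31.0 CPM. Ndr mouse 1224 had 6 genes higher in the hilar culture, and WT mice 1221, 1223 and 1225 had 10, 3 and 1. Over all tested genes the share higher in the hilar culture stayed between 47.0% and 52.8% in the 6 mice. The transcript length measure described further on also differed between the 2 cultures of a mouse. Hilar minus peripheral, it was -1.01, 1.1 and 0.0856 in Ndr mice 1219, 1220 and 1224. In WT mice 1221, 1223 and 1225 it was 0.133, -0.714 and -0.0967. Its part in the direction of the set within each mouse was not tested. The median region difference of the set in Ndr organoids was 0.69 without Ndr peripheral 1219, 0.0895 without Ndr peripheral 1224, 0.020 without Ndr peripheral 1220 and 0.0013 without Ndr hilar 1220. That in WT organoids was -0.23 without WT hilar 1221, -0.18 without WT peripheral 1221, -0.068 without WT peripheral 1223 and -0.065 without WT peripheral 1225, and was positive without WT hilar 1225 (0.073) and with the length covariate (0.010).

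The genotype difference was also compared between regions by the interaction term, hilar minus peripheral in Ndr less the same in WT. Its values of at least 0.5 in size in the set were 0.87 for Lats2 (SE 0.639), 0.73 for Amotl1 (SE 0.810), 0.55 for Tead1 (SE 0.769), 0.54 for Amotl2 (SE 0.512) and -0.52 for Ankrd1 (SE 0.438), each with an edgeR adjusted p of 0.994. The genotype difference of Ankrd1 passed the test in neither region. It was also not shown to differ between hilum and periphery. No gene of the set had an unadjusted p under 0.05, against 3.0% of genes, and edgeR called 0.0% at an adjusted p under 0.05 and DESeq2 4 genes.

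Across the 12 libraries the 10 genes fell into pairs that moved together and others that did not. All 45 pairs were compared on log2(CPM + 1) with Pearson's r and Spearman's rho, each with a permutation test of 100000 resamples and Benjamini-Hochberg adjustment over the 45; the libraries come from 6 mice, 2 from each, and were permuted as if independent. Of the 45 values of r, 35 were positive. The same counts were not made for pairs of other tested genes, so whether such pairing is particular to the set was not tested. Genes outside the set, named further on, had a higher r with Ccn1 than Ccn2 had, up to 0.94 for Tmeff1. Ccn1 and Ccn2 had r = 0.79 and rho = 0.79 (permutation p = 0.0025 and 0.00332, adjusted 0.0225 and 0.0299), 0.75 without the 2 libraries farthest from the median of Ccn1, and 0.97 for deviations from the group means. The angiomotin-like genes formed a second group with Lats2. Amotl1 and Lats2 had r = 0.79 and rho = 0.85 (permutation p = 0.0016 and 0.00075, adjusted 0.0224 and 0.0286), and r = 0.77 without the 2 farthest libraries. Amotl2 and Lats2 had r = 0.79 and rho = 0.83 (adjusted permutation p = 0.0224 and 0.0286), and r = 0.68 without them. Amotl1 and Amotl2 had r = 0.84 and rho = 0.73 (adjusted permutation p = 0.0224 and 0.0718), and r = 0.60 without them.

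Ankrd1 did not follow the CCN genes. Its r was 0.22 with Ccn1 and -0.04 with Ccn2, and its lowest were -0.61 with Ajuba and -0.51 with Lats2, none of them past an adjusted permutation p of 0.05. The coactivator mRNAs did not track the secreted targets either: Yap1 had r = 0.01 with Ccn1 and -0.07 with Ccn2, and Wwtr1 had 0.06 and 0.18. Yap1 and Tead1 had r = 0.76 and rho = 0.80 (adjusted permutation p = 0.0224 and 0.0299), and r = 0.70 without the 2 libraries farthest from the median of Yap1.

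Part of this grouping moved with a property of the libraries. For each library the median deviation of log2(CPM + 1) from the gene mean over 3749 genes with at least 6248 exon bases had that over 3745 genes with at most 1992 bases subtracted from it, the 10 genes left out. This long-minus-short measure was -0.74, 0.55 and 0.10 in Ndr hilar and 0.35, -0.42 and -0.09 in WT hilar organoids, and 0.27, -0.55 and 0.01 in Ndr peripheral and 0.22, 0.30 and 0.01 in WT peripheral organoids. The lowest libraries, Ndr hilar 1219 and Ndr peripheral 1220, were also those with the least Tead1. Over the 12 libraries its r was 0.97 with Tead1, 0.83 with Yap1, 0.77 with Amotl1, 0.74 with Lats2, 0.70 with Amotl2 and 0.65 with Ajuba, as descriptions. It was 0.31 with Wwtr1, 0.03 with Ccn1, -0.03 with Ccn2 and -0.22 with Ankrd1. The exons of Tead1 span 13570 bases and those of Ccn1 2019.

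**Figure D3:**
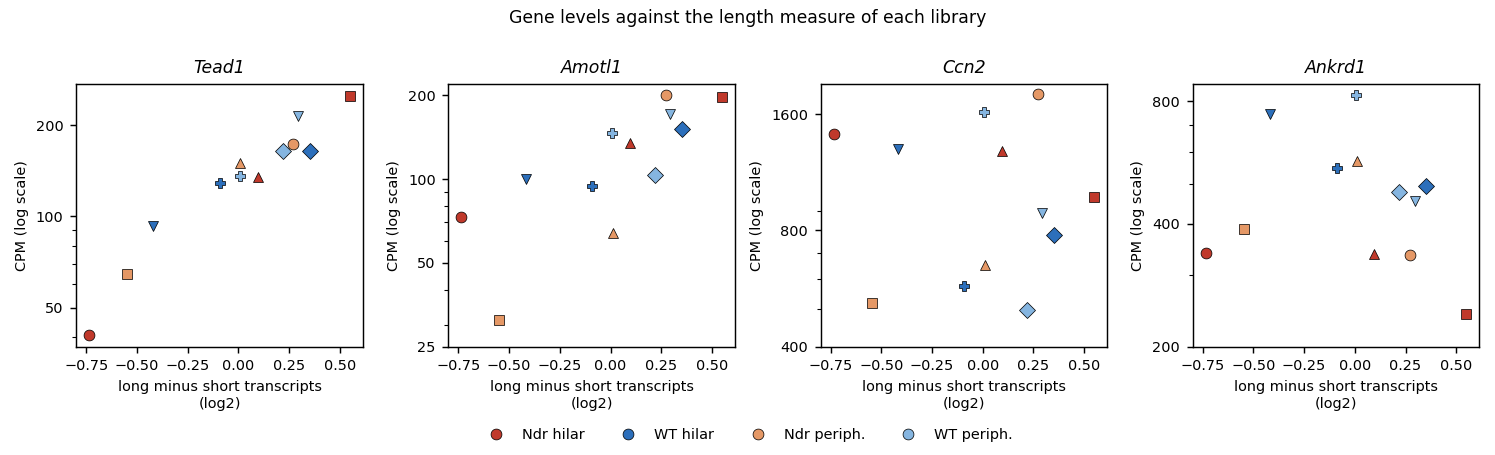
CPM of Tead1, Amotl1, Ccn2 and Ankrd1 (vertical axes, log scale) against the long-minus-short transcript measure of each library (horizontal axes, log2), 12 libraries coloured by group, with the symbols of the mice as in the plot of CPM by library. Tead1 follows the measure closely (r = 0.97), Amotl1 less so (0.77), and Ccn2 and Ankrd1 do not (-0.03 and -0.22).

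With the measure removed from each gene by linear regression, some pairs weakened or turned negative and others rose. Ccn1 and Ccn2 kept r = 0.79. Yap1 and Tead1 were at -0.26. Tead1 was at -0.76 with Ajuba and -0.645 with Lats2, against 0.48 and 0.60 as measured. Because Tead1 had r = 0.97 with the measure, little of its variation was left for these values. Amotl1 and Lats2 were at 0.52, Amotl2 and Lats2 at 0.56 and Amotl1 and Amotl2 at 0.67, while Amotl1 reached 0.92 with Ccn1 and 0.86 with Ccn2, against 0.61 and 0.52 as measured. The log2 difference of Ankrd1 with the measure as a covariate in edgeR was -0.95 in hilar organoids and -0.74 as the mean over both regions, and that of Amotl2 over both regions was -0.41. This covariate was added after the data were seen, and whether the measure reflects RNA quality was not tested.

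**Figure D4:**
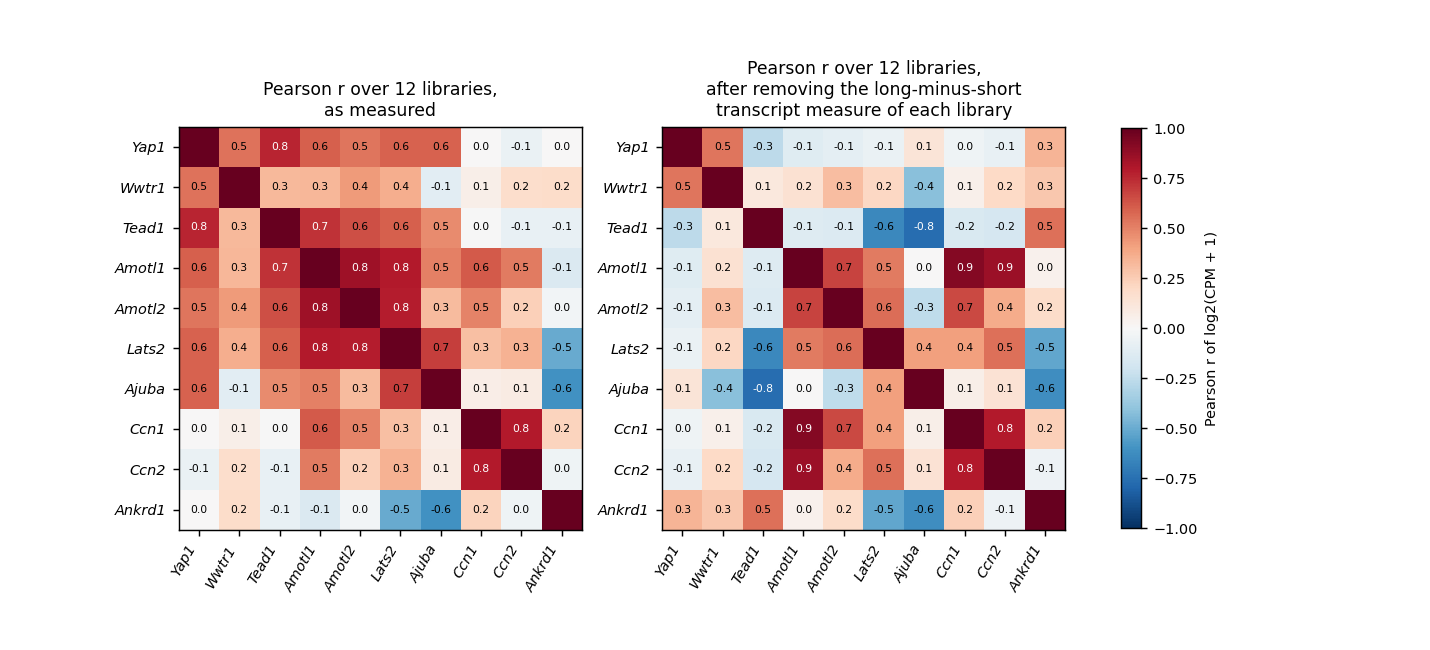
Pearson r between the 10 genes over 12 libraries (colour scale from -1 to 1), as measured on the left and after removal of the long-minus-short measure on the right. Ccn1 and Ccn2 keep r = 0.79 in both, the pair of Yap1 and Tead1 is at 0.76 on the left and -0.26 on the right, and Amotl1 moves towards the CCN genes.

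Genes outside the set with the most similar pattern differed between the 3 targets. Among 11829 genes of at least 5 CPM on average, over 12 libraries and by Pearson's r of log2(CPM + 1), those nearest to Ccn1 were Tmeff1 (0.94), Glul (0.91), Cdyl (0.91), Kif1a (0.89) and Sh3bp2 (0.88). Nearest to Ccn2 were Lmcd1 (0.89), Rgs17 (0.86), Klc3 (0.86), the tight junction gene Cldn4 (0.86) and Cox6b2 (0.85). Nearest to Ankrd1 were Smox (0.94), which encodes spermine oxidase, the phosphatase gene Dusp5 (0.91), Pmaip1 (0.91), the chromatin gene Hmga2 (0.91) and Csf3 (0.90), the gene of a granulocyte growth factor. Csf3 ranged from 0.784 to 515 CPM. No gene was in more than 1 of the 3 lists. With 5 genes taken from 11829, this does not show that the patterns differ: Ccn1 and Ccn2, at r = 0.79 with each other, shared none either. These are descriptions of the highest values in a search, without a test.

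Other genes of the pathway, from lists made for this comparison, gave the same count of 0 calls by edgeR in every comparison. For the kinase, TEAD partner and other YAP target lists, counts of signs are over mouse totals, while CPM of named genes are from hilar organoids. Between Ndr and WT hilar organoids these lists held 7, 10 and 7 positive genes (median log2 -0.05, 0.10 and -0.11). Of 20 genes of the kinase cascade, 18 were tested, and over mouse totals 3 were positive and 15 negative (median log2 -0.15). The most abundant were Mob1a, a LATS cofactor, at 227 ± 31.9 CPM in Ndr hilar and 259 ± 43.5 CPM in WT hilar organoids, and Wwc1, the scaffold KIBRA, at 367 ± 202 and 300 ± 137 CPM. Of 19 further TEAD genes and binding partners, 18 were tested, 6 positive and 12 negative (median -0.05), with the junction genes Tjp1 at 284 ± 127 CPM in Ndr hilar and 379 ± 31.6 CPM in WT hilar organoids and Lpp at 165 ± 89.3 and 203 ± 71.8 CPM. Vgll1, a TEAD cofactor, and the cadherin gene Dchs1 had no count in any library. Of 17 other listed YAP targets, all were tested, 6 positive and 11 negative (median -0.15), 3 with an unadjusted p under 0.05, as had 5.42% of all tested genes. The most abundant of them were Myof, at 342 ± 142 CPM in Ndr hilar and 482 ± 24.9 CPM in WT hilar organoids, and Arhgef17, at 228 ± 118 and 245 ± 135 CPM. Of the 18 actin and serum response factor genes, 15 were tested, with 12 of 15 negative in hilar organoids (median -0.41) and 9 of 15 in peripheral ones (median -0.01). Actb, the cytoplasmic actin gene, averaged 1120 ± 94.2 CPM in Ndr hilar and 1910 ± 756 CPM in WT hilar organoids.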

How the data were processed

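RNA-seq libraries from 12 organoid cultures (6 mice, hilum and periphery of each) were prepared from total RNA with a TruSeq kit that does not mark strand, per the labels' protocols. The authors deposited raw counts per gene, for which the submitters' processing notes name featureCounts and build GRCm39. No aligner, annotation release or strand setting is given in the sources used here. The authors also deposited a normalized signal table, with DESeq2 1.34.0 named in the submitters' processing notes. For genes of 200 or more counts in every library, the ratio of this signal to the count spread 1.81 to 2.19-fold between its 5th and 95th percentile within a library, so it holds more than 1 scaling factor per library, and it served as an alternative only.

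All results start from the deposited counts. Symbols and exon lengths came from GENCODE M21 on GRCm38, in which all 10 genes matched, and promoters from RefSeq. In R 4.3.3 with edgeR 4.0.16, genes were filtered with filterByExpr and scaled by TMM, and a robust quasi-likelihood F test was run over 12 libraries with 1 coefficient per group (15014 genes, 8 residual degrees of freedom), or over 6 mouse totals (15401 genes, 4 residual degrees of freedom). p-values were Benjamini-Hochberg adjusted over all genes tested, with a threshold of 0.05. CPM used TMM-scaled library sizes. The fit was tested on simulated counts. Permutation tests used numpy 2.4.6, and their Benjamini-Hochberg adjustment used scipy 1.17.1.

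Replicates are separate mice, so p-values measure spread between mice and cultures. Hilar and peripheral libraries of the same number come from the same mouse, which pairs them. Their deviations from the group means correlated between -0.40 and 0.44 within the 6 mice. The main fit over 12 libraries held no mouse term, so its region and interaction tests did not use this pairing. Alternatives were DESeq2 size factors, no filter, DESeq2 1.42.0, limma-voom and limma-trend (limma 3.58.1), other pseudocounts, a mouse block, mice of a shared derivation date, and leaving out each library or mouse. The 10 genes, the other gene lists and the tests were chosen with earlier results of these data known. The naming rule gave CPM of the 10 genes, log2 differences past the threshold or of at least 1 in size (no gene qualified), the 2 most abundant tested genes of each pathway list, and the 5 genes most like each of Ccn1, Ccn2 and Ankrd1; any other value printed was chosen after it was seen. The regenerative epithelium, hepatocyte, immune and mesothelial lists are given in the closing observations. Intervals cover the error of the fit. Depth, 6708822 to 16030880 counts per library, left each of the 10 genes far above the filter.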

Additional observations from a re-analysis of the deposited data

How the results depend on the processing

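No gene of the set passed an adjusted p of 0.05 under DESeq2 size factors, no filter on low counts, the DESeq2 test, limma-voom, the mouse block or with any library or mouse left out. The count of all genes called was 0 by edgeR in each comparison. By DESeq2 it was 45 in hilar organoids, 9 in peripheral organoids, 126 in mouse totals, 79 for region in Ndr organoids, 0 for region in WT organoids and 4 for the interaction. By limma-trend on the deposited normalized table it was 1652, 139, 7596, 44, 5 and 7 in the same order. With no filter it was 5 in mouse totals. Leaving out a library or mouse gave 0 to 2 in peripheral organoids (2 without Ndr peripheral 1219), 0 to 4 in mouse totals (4 without Ndr 1219) and 0 to 7 for region in Ndr organoids (7 without Ndr peripheral 1219).

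On the normalized table, 4 of the 10 genes were called in mouse means (Ccn1 -0.69, Ankrd1 -0.61, Amotl1 -0.29 and Wwtr1 0.19 on the log2 scale) where 47.7% of 15923 genes were called; the cause was not tested. Signs over both regions also turned there for Tead1 (0.069), Ccn2 (-0.12) and Lats2 (0.29), and for Amotl2 in hilar organoids (0.17). Between the mice sharing a date they turned for Wwtr1 (0.20), Tead1 (0.10), Ccn2 (-0.33), Ajuba (-0.091) and Lats2 (0.18), and for hilar Amotl2 (0.39). Lats2 turned as the mean of hilar and peripheral effects (0.057) and with the length covariate (0.19). With 1 mouse left out, Ccn2 ranged from -0.26 to 0.37, Ajuba from -0.059 to 0.34 and Lats2 from -0.23 to 0.15 in mouse totals, and with 1 library left out Amotl2 ranged from -0.45 to 0.092 in hilar organoids. None of these was past the threshold.

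Ankrd1 kept a negative difference over both regions in each alternative, -0.87 to -0.53 with a mouse left out. With the mouse as a replicate block, Ankrd1 was at -0.98 in hilar organoids (limma-voom, adjusted p = 0.896, with 0.0948 to 1.0 over all its alternatives) and the block changed no call. With 3 cultures a group, differences of the size seen here in Ccn2 and Tead1 could not be resolved from the spread between cultures.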

Other observations

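Beyond the pathway lists, all 20 listed proliferation genes had negative log2 differences between Ndr and WT hilar organoids (median -1.73) and between hilar and peripheral Ndr organoids (median -1.82), and all 20 were positive between genotypes in the periphery (median 0.42), but edgeR called 0.0% of genes in each comparison, with 9, 12 and 0 of the 20 at an unadjusted p under 0.05, against 6.54%, 10.3% and 2.92% of all tested genes. Top2a, the DNA topoisomerase of dividing cells, averaged 67.1 ± 19.7 CPM in Ndr hilar and 233 ± 238 CPM in WT hilar organoids. Mcm6, of the replicative helicase, averaged 99.7 ± 9.40 CPM in Ndr hilar and 147 ± 105 CPM in WT hilar organoids. The summed level in WT hilar 1225, 3311 CPM, was the highest of the 12 libraries.

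Of 10 genes of regenerative epithelium, several of which are known YAP targets in the gut, 8 were negative between Ndr and WT hilar organoids (median -1.14) and 8 positive between Ndr and WT peripheral organoids (median 0.18). Of all tested genes 50.5% were negative in hilar and 45.5% in peripheral organoids. An unadjusted edgeR p under 0.05 was reached by 2 and 0 of the 10, against 6.54% and 2.92% of all tested genes. The 2 most abundant of the list, Clu and Anxa3, were the 2 positive ones in hilar organoids, and the lowest was Il33 (log2 -4.19). Clu averaged 20700 ± 2670 CPM in Ndr hilar and 16500 ± 10600 CPM in WT hilar organoids, and Anxa3 averaged 1160 ± 311 and 1140 ± 303 CPM. The hepatocyte list held Hnf4a, which bile duct organoids also express, at 175 ± 50.5 CPM in Ndr hilar and 178 ± 39.3 CPM in WT hilar organoids, and Ttr at 42.8 ± 15.4 and 4.91 ± 2.86 CPM. Over the 12 libraries Alb lay between 0.31 and 40.9 CPM, and Serpina1a reached 4.31 CPM. The other 6 of its 10 genes were under 1 CPM in all libraries, with Cps1 at 0 counts. Immune markers were under 1 CPM in all libraries for 7 of 9 genes, with Csf1r at 5.87 to 37.0 CPM and Cd68 at 1.45 to 10.7 CPM. Of 6 mesothelial genes 3 were under 1 CPM in all libraries, Msln lay between 37.4 and 658 CPM, and Wt1 had no count in any WT library and up to 26.0 CPM in an Ndr peripheral one.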
